A study of Mus musculus with 8 samples.

Results

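In Min6 cells, a mouse insulinoma line that makes insulin, 79 genes that were close to silent in control libraries gave reads in every library from cells transfected with Zac1. These genes were chosen by their read counts: a mean below 0.1 CPM (the count as a share of the library total, times 1e6) over the control libraries, and 0.2 CPM or more in each Zac1 library. Of the 23100 genes counted, 7594 lay below 0.1 CPM in the controls and 99 of these (1.3%) met both thresholds. Leaving out 20 of the 99 by symbol (collagens, keratins, Wnt ligands, H19, Mag and some others) gave the 79 described here. Because the same counts chose the genes, their difference between the groups is a description, and no test of it is given.

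Plagl1, a gene expressed from the paternal allele, codes for Zac1, which carries zinc fingers, regulates transcription and belongs to the PLAG family, whose members bind GC-rich DNA. Beta cells and the lines derived from them keep many genes of other tissues nearly silent, while other receptors, cytoskeletal proteins and developmental transcription factors are well expressed there. Reads of such genes after transfection show where RNA counts rose from few or none, at levels far below those of the genes that define the cell.

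All 8 libraries came from Min6 cells taken 16 h after lipid-mediated transfection. In 4 of them the plasmid was pRK5-Zac1, and in the other 4 it was pRK5-NLSeGFP, which directs a nuclear green fluorescent protein. Both groups carry replicate numbers 1, 2, 3 and 5, and the series calls them biological replicates without saying whether they were separate cultures, so the spread between them may be partly technical. The share of cells that took up the plasmid is not given in the sources used here, and in these bulk libraries a few cells with much RNA of a gene cannot be told apart from many cells with little.

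Library totals ran from 30548923 to 35022857 counts in the controls and from 34729182 to 42446737 counts with Zac1. At these depths 0.2 CPM corresponds to between 6.95 and 8.49 counts in a Zac1 library. Plagl1, the transfected gene, stood at 5820, 4312, 4152 and 4353 CPM in Zac1 libraries 1, 2, 3 and 5 and at 77.3, 68.0, 78.1 and 85.5 CPM in control libraries 1, 2, 3 and 5, plasmid and endogenous reads together. Beta cell markers were present: none of the 20 listed was near silence, and their sum was 68692 to 83952 CPM in the controls and 72068 to 79529 CPM with Zac1.

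The 79 genes together had 500 counts in the 4 control libraries and 7052 in the 4 Zac1 libraries. Their summed level was 3.98, 4.28, 4.26 and 2.42 CPM in control libraries 1, 2, 3 and 5, and 50.3, 43.3, 41.8 and 40.9 CPM in Zac1 libraries 1, 2, 3 and 5. The mean was 44.1 ± 4.28 CPM (SD, n = 4) with Zac1 and 3.74 ± 0.886 CPM (SD, n = 4) in the controls, a separation that the choice of genes comes close to requiring. Zac1 library 1, which also had the highest Plagl1, was the highest of the Zac1 libraries, and control library 5 the lowest of the controls. The other 7495 near-silent genes together were also highest in Zac1 library 1, at 188.5 CPM against 152.7 to 161.0 in the other Zac1 libraries. Their mean sum was 165.7 ± 15.7 CPM (SD, n = 4) with Zac1 and 118.7 ± 1.43 CPM (SD, n = 4) in the controls. Low control counts chose these genes too, so this difference is a description. Library 1 gave the highest of the 4 Zac1 values for 38 of the 79 genes, libraries 2, 3 and 5 for 13, 12 and 16. All 79 had a count in each Zac1 library, while 30, 22, 27 and 33 of them had none in control libraries 1, 2, 3 and 5.

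**Figure D1:**
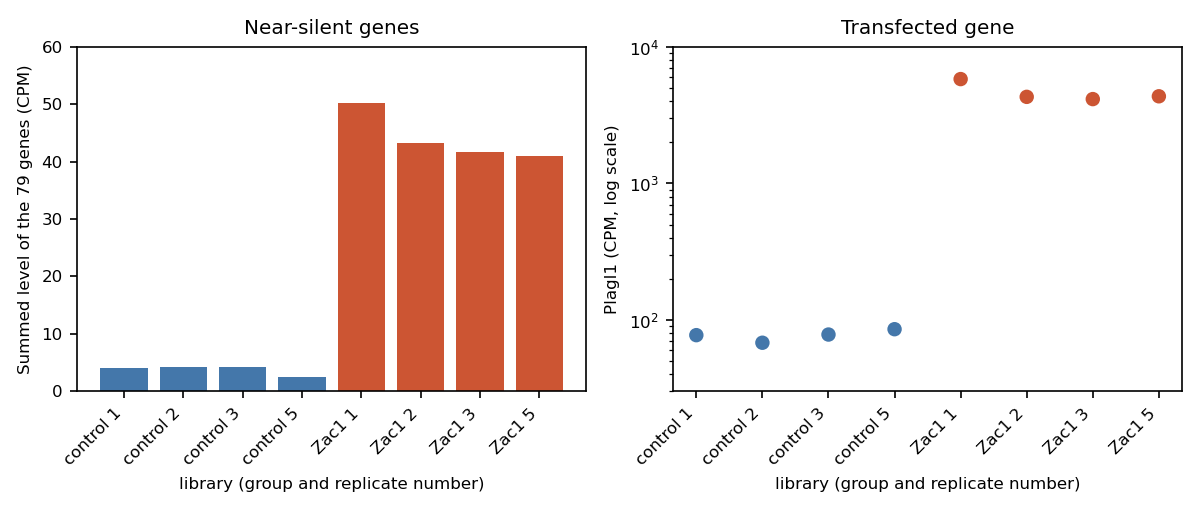
Summed CPM of the 79 genes (bars, left) and CPM of Plagl1 (points, right, log scale) in each of the 4 control libraries (blue) and the 4 Zac1 libraries (orange). The sums lie between 2.42 and 4.28 CPM in the controls and between 40.9 and 50.3 CPM with Zac1.

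How many counts stood behind a gene differed widely. With Zac1 the total over 4 libraries ran from 42 (Siglecg) to 254 (Gm1337), with a median of 77. It reached 100 or more in 17 genes, lay between 50 and 99 in 54, and was below 50 in 8. In the controls the median total was 7 and the highest 13: 8 genes had no count, 18 had 1 to 3, 24 had 4 to 8 and 29 had 9 or more. The 10 genes with most Zac1 counts held 28.3% of all counts of the 79, and the first 20 held 43.4%. In the plot of levels by library, the Zac1 points of each gene lie to the right of all its control points, which the thresholds come close to requiring.

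**Figure D2:**
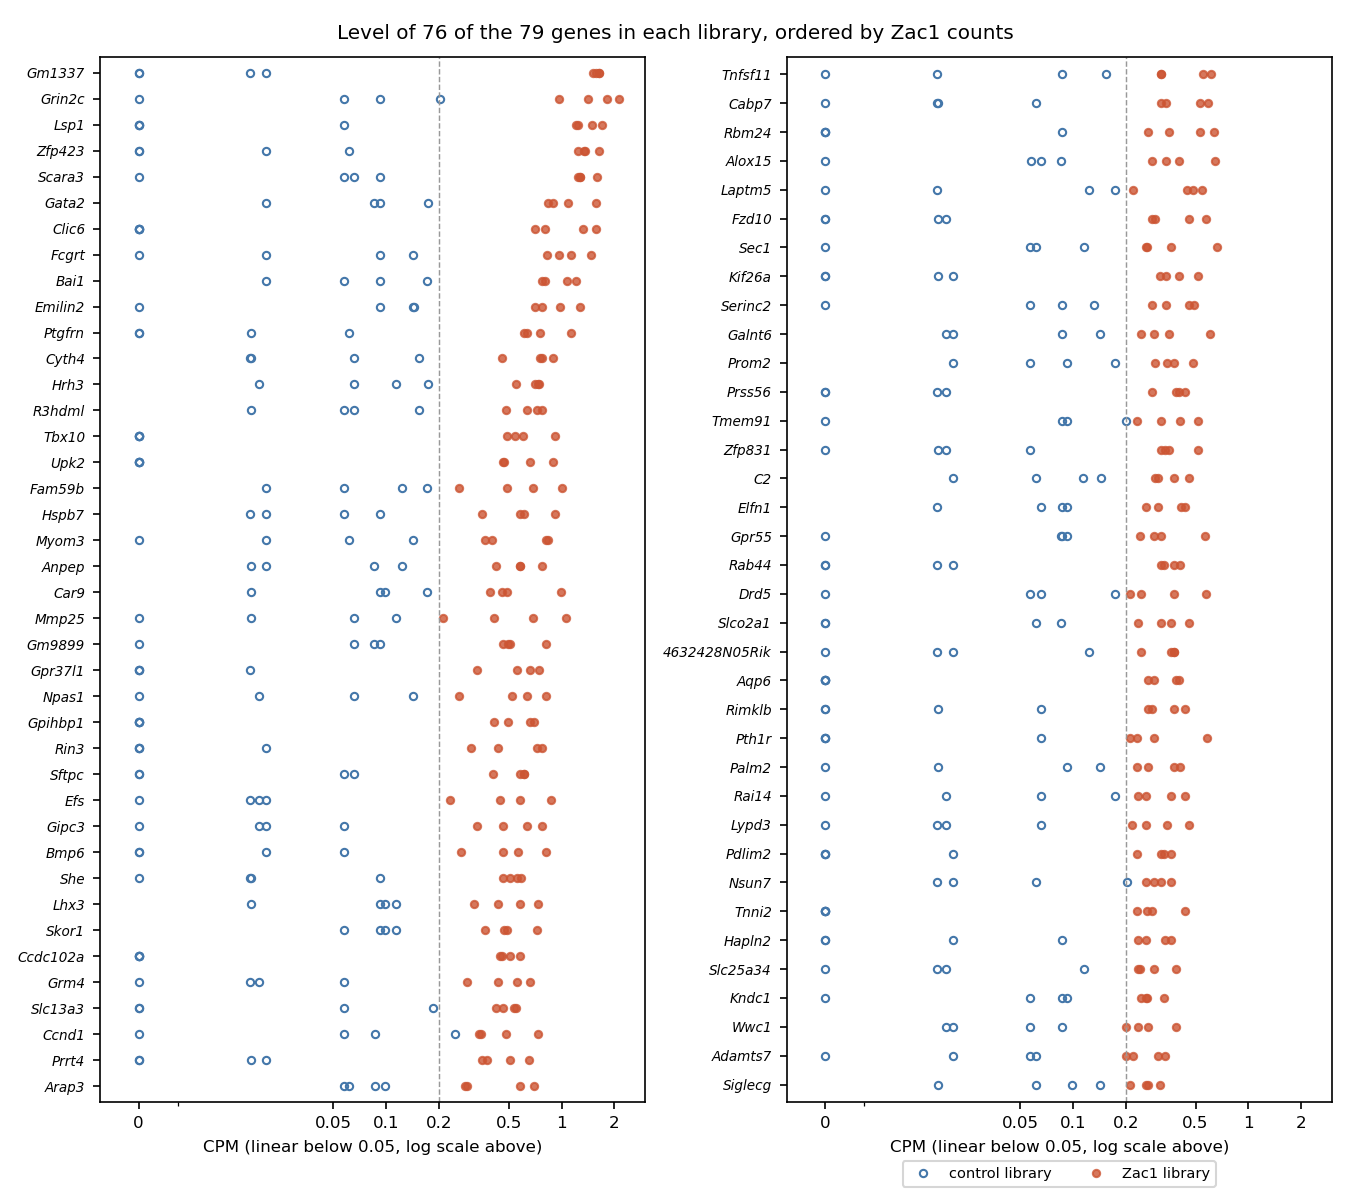
CPM of 76 of the 79 genes in the 4 control libraries (open blue circles) and the 4 Zac1 libraries (orange), ordered by total Zac1 counts; the axis is linear below 0.05 and logarithmic above, and the dashed line marks 0.2 CPM. Every Zac1 point is at or to the right of the line, as the choice of genes requires, and totals fall from 254 counts for Gm1337 to 42 for Siglecg.

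By what their products are known to do, the genes were sorted, after their values were seen, into 14 receptors, 7 channels and transporters, 9 other membrane proteins, 10 transcription factors and RNA-binding proteins, 11 secreted ligands, matrix proteins and proteases, 5 other enzymes, 8 muscle and cytoskeletal proteins, and 12 adaptors, GTPase regulators and cell cycle genes. The remaining 3 were not assigned. Receptors, channels, transporters and other membrane proteins together made up 30 of the 79 and held 39.3% of their Zac1 counts, close to their share of the genes. The share of such proteins among all genes was not taken. In what follows, counts are listed for libraries 1, 2, 3 and 5 of a group in that order. A ratio compares the summed counts of the groups after division by their library totals, with a 95% counting interval (exact binomial) that covers counting error only. Where all controls had 0 counts, a lower bound is given instead, with the control group taken to hold 3 counts in all.

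The 14 receptors, the class with most genes, had 98 counts in the controls and 1500 with Zac1, the largest sum of any class. Grin2c, a subunit of NMDA-type glutamate receptors, had 88, 63, 58 and 41 counts with Zac1 and 7, 2, 3 and 0 in the controls. Its Zac1 level was 1.58 ± 0.499 CPM (SD, n = 4), and the highest of the 4 libraries was 2.19 times the lowest. The ratio was 17.3 (9.72 to 33.9). Scara3, a scavenger receptor-like protein, was more even, with 53, 43, 66 and 54 counts against 0, 2, 3 and 2, a ratio of 25.6 (12.2 to 64.4). Fcgrt, the heavy chain of the neonatal Fc receptor that salvages IgG, had 47, 51, 40 and 35 counts against 0, 5, 3 and 1 (ratio 15.9, 8.21 to 35.5).

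Of the receptors, 8 are coupled to G proteins or belong to that superfamily, with 53 control and 664 Zac1 counts between them. Bai1, now named Adgrb1, an adhesion receptor for apoptotic cells, led with 50, 28, 44 and 33 counts against 2, 6, 3 and 1 (ratio 10.7, 5.96 to 21.2). Hrh3, the presynaptic histamine receptor, had 31, 19, 29 and 31 against 6, 4, 1 and 2 (ratio 7.02, 3.94 to 13.6). Gpr37l1, an orphan receptor of astrocytes, had 1 control count in all and 91 with Zac1 (ratio 75.5, 13.2 to 3014), so its control level is barely measured. Fzd10, a frizzled receptor of Wnt ligands, went from 2 to 63 counts (ratio 26.1, 6.94 to 220.5), and Pth1r, the parathyroid hormone receptor, from 2 to 53 (22.0, 5.79 to 186.2). The metabotropic glutamate receptor Grm4 had 4 and 79 counts, the dopamine receptor Drd5 10 and 56, and the lysolipid receptor Gpr55 9 and 57. Siglecg, a sialic acid-binding inhibitor of B cells, had 11 and 42 counts. The last receptor named here is 4632428N05Rik, now named Vsir, an inhibitory ligand of T cells, with 6 and 54.

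Among the 7 channels and transporters, Clic6, of the chloride intracellular channel family, had 65, 46, 29 and 34 counts with Zac1 and none in the controls, at least 48.1-fold higher. This is the highest lower bound of the 8 genes without a control count. Aqp6, an intracellular aquaporin, had 16, 10, 11 and 17 counts and also none in the controls (at least 14.9-fold). The dicarboxylate transporter Slc13a3 had 8 control and 79 Zac1 counts, the prostaglandin transporter Slco2a1 5 and 55, the mitochondrial carrier Slc25a34 6 and 46, and Serinc2, of the serine incorporator family, 9 and 62.

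The other 9 membrane proteins had 54 and 686 counts. Ptgfrn, an immunoglobulin-like partner of tetraspanins, had 47, 22, 25 and 32 counts against 1, 0, 2 and 0 (ratio 34.8, 11.7 to 171.2). Upk2, a uroplakin of the bladder lining, had 37, 23, 19 and 20 with Zac1 and none in the controls (at least 27.4-fold). Gpihbp1, which carries lipoprotein lipase across capillary endothelium, likewise had 29, 23, 17 and 21 against none (at least 24.9-fold). The rest were supported by fewer reads: Prrt4 had 2 control and 76 Zac1 counts, Laptm5, a lysosomal protein of blood cells, 11 and 67, Prom2, a prominin of membrane protrusions, 12 and 60, Tmem91 13 and 60, the synaptic adhesion protein Elfn1 9 and 57, and the glycolipid-anchored Lypd3 4 and 51.

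Of the 10 transcription factors and RNA-binding proteins, Zfp423, a multi-zinc-finger factor of adipocyte precursors and the cerebellum, had the most reads. Its counts were 68, 43, 55 and 58 with Zac1 and 0, 0, 2 and 1 in the controls, a ratio of 61.9 (20.9 to 302.6). Gata2, a factor of blood progenitors, had 35, 38, 37 and 67 against 6, 3, 3 and 1 (ratio 11.3, 6.44 to 21.6), with library 5 well above the others. Tbx10, a T-box factor, had 25, 17, 38 and 23 against no control count (at least 28.5-fold). Rbm24, a splicing regulator of muscle, had 3 control and 70 Zac1 counts (ratio 19.4, 6.36 to 96.1). The neuronal factor Npas1 had 8 and 91 counts, the pituitary and motor neuron factor Lhx3 11 and 84, the Ski-family corepressor Skor1 12 and 82, the zinc finger gene Zfp831 4 and 60, and Nsun7, of an RNA methyltransferase family, 11 and 49. As in all 79 genes, the Zac1 libraries of these 10 lay above all their control libraries, which the thresholds come close to requiring (4.9% of all tested genes).

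Secreted ligands, matrix proteins and proteases numbered 11, with 78 control and 895 Zac1 counts. Emilin2, a glycoprotein of elastic fibres, had 32, 34, 29 and 54 counts against 5, 5, 3 and 0 (ratio 9.51, 5.39 to 18.3). R3hdml, a secreted protein of the CAP family, had 20, 27, 30 and 27 against 1, 2, 5 and 2 (ratio 8.63, 4.51 to 18.5). Bmp6, a bone morphogenetic protein that also signals iron status, went from 3 to 85 counts (ratio 23.5, 7.77 to 116.2), and Prss56, a serine protease of the eye, from 2 to 60 (24.9, 6.59 to 210.2). Mmp25, a membrane-anchored matrix metalloprotease, was the most uneven of the 79: its Zac1 libraries had 44, 24, 17 and 9 counts, a 4.99-fold range in CPM. Anpep, aminopeptidase N, had 9 and 94 counts, the lung surfactant protein Sftpc 4 and 88, the osteoclast ligand Tnfsf11 9 and 73, complement C2 12 and 57, the brain link protein Hapln2 4 and 48, and the metalloprotease Adamts7 5 and 43.

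The 5 other enzymes had 41 and 338 counts. Car9, a carbonic anhydrase induced by low oxygen, had 19, 17, 16 and 42 counts with Zac1 and 1, 6, 3 and 3 in the controls, with library 5 again apart from the others. The lipoxygenase Alox15 had 7 and 67 counts, the mucin-type glycosyltransferase Galnt6 10 and 60, and Rimklb, which joins glutamate to aspartate derivatives, 3 and 54 (ratio 14.9, 4.84 to 74.7). Sec1, of the fucosyltransferase family, had 8 and 63 counts. It lies beside its relative Fut2, so reads could be split between similar copies and its value is uncertain.

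Muscle and cytoskeletal proteins numbered 8, with 38 and 681 counts. Lsp1, a leukocyte actin-binding protein, held 225 of them, at 71, 52, 51 and 51 with Zac1 against 0, 2, 0 and 0 (ratio 93.3, 25.5 to 775.2). Tnni2, the inhibitory troponin of fast skeletal muscle, had 11, 8, 18 and 12 against no control count (at least 13.5-fold). Hspb7, a small heat shock protein of heart, had 24, 32, 25 and 15 against 2, 1, 3 and 1 (ratio 11.4, 5.31 to 29.1), and Myom3, of the sarcomere's M-band, 95 against 8. Kif26a, an atypical kinesin, went from 2 to 62 counts (ratio 25.7, 6.82 to 217.0) and Pdlim2, a PDZ and LIM protein, from 1 to 50 (41.5, 7.11 to 1670). Palm2, a paralemmin, had 9 and 52 counts, and the actin-binding Rai14 9 and 52.

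The 12 adaptors, GTPase regulators and cell cycle genes had 79 and 930 counts. Cyth4, a cytohesin that activates Arf GTPases in leukocytes, had 19, 27, 37 and 32 counts against 1, 1, 5 and 2 (ratio 10.6, 5.39 to 23.8). Fam59b, now named Garem2, a neuronal adaptor of growth factor signalling, had 42, 24, 20 and 11 against 2, 6, 4 and 1 (ratio 6.19, 3.45 to 12.04), highest in library 1 and lowest in library 5 like Mmp25. Rin3, an exchange factor for endosomal Rab GTPases, went from 1 to 90 counts (ratio 74.6, 13.1 to 2981), Efs, a docking protein of Src kinases, from 3 to 87 (24.1, 7.96 to 118.9), and Rab44 from 2 to 57 (23.6, 6.25 to 199.9). Gipc3, a PDZ protein of inner ear hair cells, had 4 and 87 counts, the adaptor She 5 and 85, Ccnd1, a D-type cyclin, 13 and 77, Arap3, which acts on small GTPases, 10 and 75, the calcium sensor Cabp7 4 and 72, the neuronal exchange factor Kndc1 8 and 44, and Wwc1, of the Hippo pathway, 7 and 44.

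Of the 3 genes without an assigned function, Gm1337, now named Ankrd63 and known only as an ankyrin repeat protein, had the most Zac1 reads of all 79. Its 68, 57, 65 and 64 counts correspond to 1.59 ± 0.0620 CPM (SD, n = 4), with 0, 1, 0 and 1 counts in the controls (ratio 105.3, 28.9 to 875). The Zac1 libraries differed by 1.09-fold, the smallest range of any of the genes. Ccdc102a, a coiled-coil protein, had 19, 20, 21 and 19 counts against none (at least 21.8-fold), and the noncoding Gm9899 8 and 92.

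Spread between the Zac1 libraries was often larger than counting error. The highest library exceeded the lowest by a median of 1.84-fold, by 2-fold or more in 28 genes and by 3-fold or more in 5. The chi-square of the Zac1 counts per degree of freedom, which is near 1 for counting error alone, had a median of 1.61 and was above 2 in 32 genes. Mmp25 (9.54), Fam59b (6.999), Grin2c (6.61) and Clic6 (6.39) were spread widely and were highest in library 1, while Gata2 (4.26) and Car9 (5.40) were highest in library 5. Gm1337 (0.0980) was among the most even.

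Levels of different genes can be set side by side only per length. Per kilobase of the longest GENCODE transcript, the median over the 79 was 0.147 CPM with Zac1, a level below which lay 9.77% of the genes at 0.1 CPM or more in the controls. Sftpc (0.696 CPM per kilobase), Fcgrt (0.621), R3hdml (0.599), Upk2 (0.574) and Lsp1 (0.530) were highest on this scale, and Kndc1 (0.0375) and Zfp831 (0.0389) lowest. The transcripts had a median of 3.52 kilobases, against 1.75 for the other near-silent genes and 3.30 for genes at 0.1 CPM or more. The thresholds are in CPM without regard to length, so a longer transcript meets the Zac1 threshold at a lower level per kilobase.

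Genes lay close to both thresholds on either side. Car9, Ccnd1 and Fam59b, at a control mean of 0.0977, 0.0976 and 0.0963 CPM, were just inside the first, and 9330179D12Rik, Bzrap1 and 2210020M01Rik, at 0.103, 0.104 and 0.104 CPM, just outside. Adamts7, Wwc1 and Pth1r, with a lowest Zac1 library of 0.202, 0.202 and 0.212 CPM, were just inside the second, and Slc34a3, Rspo3 and Nfatc1, each at 0.194 CPM, just outside. Ccnd1 had 20, 12, 14 and 31 counts with Zac1 and 3, 2, 8 and 0 in the controls. Adamts7 had 14, 7, 9 and 13 against 0, 2, 2 and 1, Wwc1 16, 7, 11 and 10 against 3, 2, 1 and 1, and Pth1r 12, 8, 24 and 9 against 0, 0, 0 and 2. In all 4, as in all 79 genes, the groups did not overlap, which the thresholds come close to requiring. The Zac1 libraries lay above all control libraries in 4.9% of all tested genes. For Ccnd1 the highest control library had 8 counts and the lowest Zac1 library 12.

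With the roles of the groups exchanged, the same thresholds found 0 genes: none below 0.1 CPM on average with Zac1 reached 0.2 CPM in each control library. Of the genes near silence in the controls, 259 reached 0.2 CPM in 1 Zac1 library, 55 in 2, 40 in 3 and 99 in 4. Of the 7283 genes near silence with Zac1, 117 reached it in 1 control library, 19 in 2, and 0 in 3 or 4. The plot of means shows the 79 genes well above the diagonal, with no group of genes below it at the same distance.

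**Figure D3:**
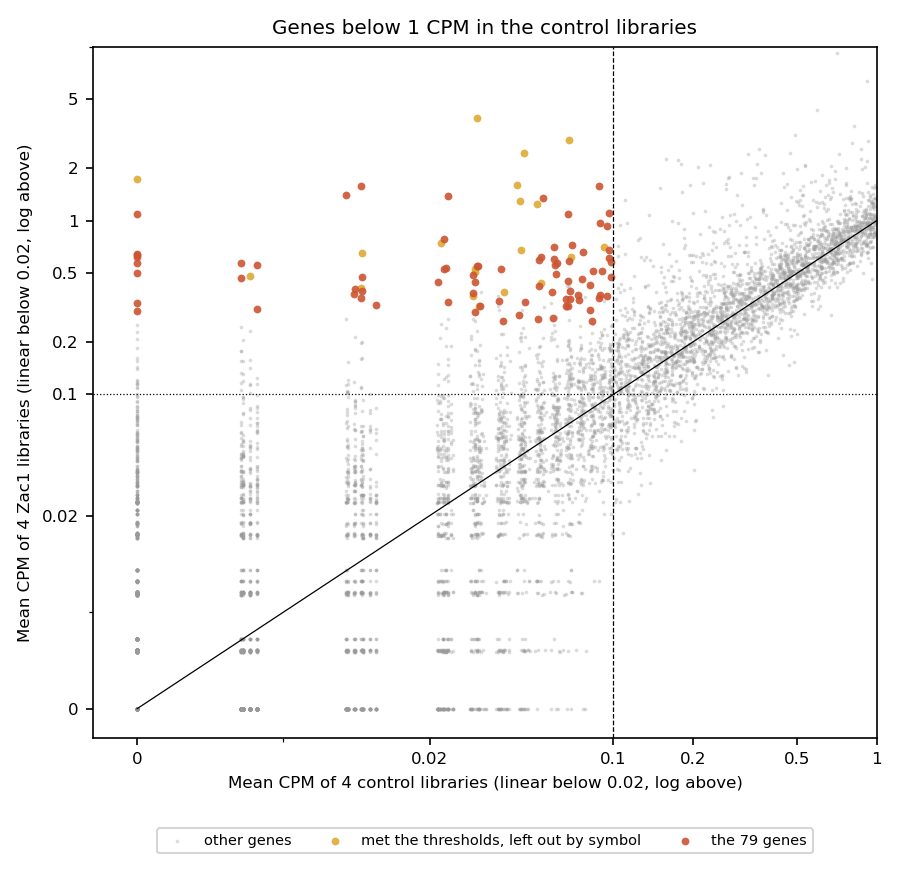
Mean CPM over the 4 Zac1 libraries against mean CPM over the 4 control libraries for genes below 1 CPM in the controls and below 10 CPM with Zac1; axes are linear below 0.02 and logarithmic above. The solid line marks equal levels and the dashed and dotted lines 0.1 CPM; the 79 genes (orange) and the 20 left out by symbol (yellow) lie between 0 and 0.1 CPM in the controls.

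Genes were also chosen on 3 replicate numbers and read in the pair of libraries left out. The rule itself was set with earlier results of these data known, and the libraries may not be separate cultures. The values in the pair left out are therefore a description. Chosen without pair 1, 87 genes had a median of 0.505 CPM in Zac1 library 1 and 0.0288 CPM in control library 1, and 83 of them (95.4%) reached 0.2 CPM in that Zac1 library. Without pair 2 there were 100 genes, at a median of 0.374 CPM in Zac1 library 2 and 0.0571 CPM in control library 2, of which 86 (86%) reached 0.2 CPM. Without pair 3 there were 94, at 0.377 and 0.0617 CPM, of which 83 (88.3%) reached it, and without pair 5 there were 82, at 0.353 and 0.0327 CPM, of which 70 (85.4%) did. Among the other genes near silence in the same 3 controls, between 1.26% and 2.06% reached 0.2 CPM in the Zac1 library left out. These genes had missed that threshold in at least 1 of the other 3 Zac1 libraries. Of the genes near silence in all controls, 3200 had no count in any library. The share is thus low by how the genes were sorted. The Zac1 library was above its control in 87 of 87, 99 of 100, 91 of 94 and 79 of 82 genes, Comp, 1300002K09Rik, Ptgir, Tead2, Gnb3, Guca2a and Snora21 being the exceptions. The same share was not computed for the other near-silent genes, so these counts stand without a base share. In pair 5, 2 of the chosen genes had no count with Zac1. With the roles of the groups exchanged, leaving out pairs 1, 2, 3 and 5 chose 1, 0, 2 and 0 genes.

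**Figure D4:**
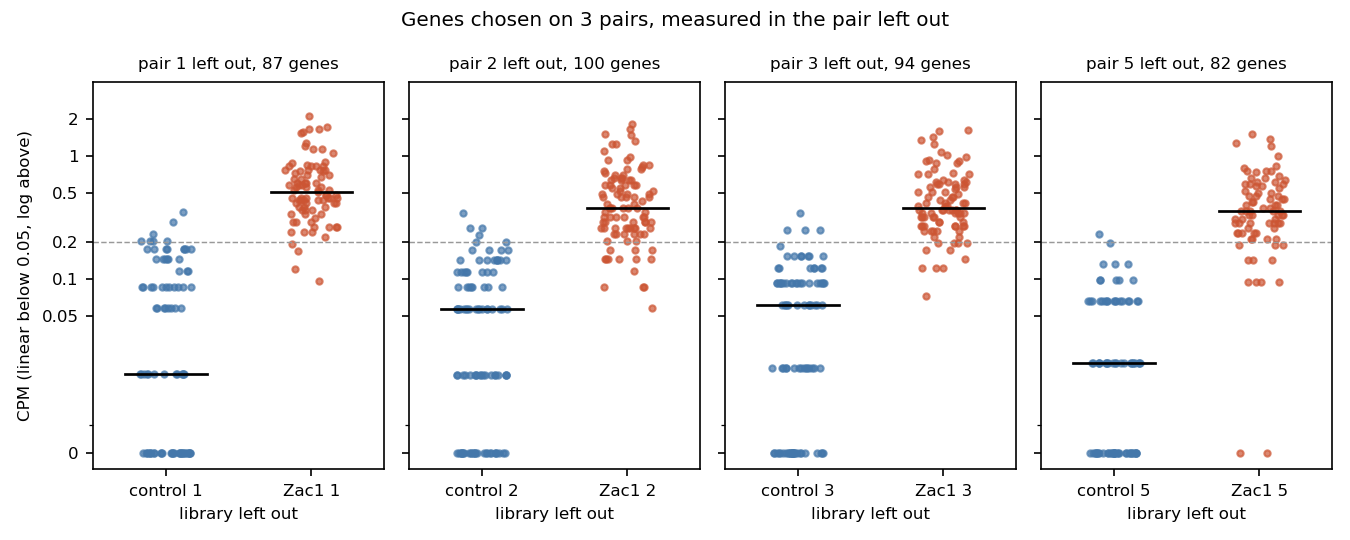
CPM in the control (blue) and Zac1 (orange) library of the replicate number left out, for genes chosen on the other 3 numbers (1 panel for each number, points are genes, black lines medians, dashed line 0.2 CPM; axis linear below 0.05 and logarithmic above). Medians are 0.353 to 0.505 CPM in the Zac1 libraries and 0.0288 to 0.0617 CPM in the controls.

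In the fit over the whole table, edgeR called 308 of 14331 tested genes higher with Zac1 (2.15%). The filter on low counts kept 44 of the 79, and 43 of these were called. Since they passed the filter through the libraries that chose them, nothing is read from that count. Ccnd1 was the gene not called (edgeR, log2 fold change 2.23, adjusted p = 0.0541), and some alternative fits called it. The Zac1 libraries lay above all control libraries in each of the 79, which the thresholds come close to requiring, and in 702 of all tested genes (4.9%).

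Markers of other cell types were summed in each library to see what moved beside the 79 genes. The summed lists did not overlap between the groups for striated muscle (59.2 to 65.6 CPM in the controls, 75.1 to 83.3 with Zac1), cartilage and bone (67.9 to 76.4 and 78.7 to 91.5), stratified epithelium (56.04 to 61.0 and 64.9 to 70.8) and blood and immune cells (24.98 to 27.2 and 28.3 to 33.4). Single genes carried much of these rises: Ppl alone rose by 8.98 CPM where the mean sum of the stratified epithelium list went from 58.1 to 68.5, and Flnc by 8.58 CPM where that of striated muscle went from 61.3 to 80.4. The other lists overlapped. Over 4 control and 4 Zac1 libraries, Flnc had 94 and 1479 counts, Col9a2 of the cartilage list 9 and 465, Col2a1 50 and 382, Alpl 47 and 340, and, in the blood list, Itgal 124 and 457, Coro1a 372 and 663 and Cd5 0 and 19. These genes were picked after their values were seen, as those with large differences in their lists. Other genes of the same lists had fewer counts with Zac1. Among them were Cilp of the cartilage list (89 and 47), Actc1 of striated muscle (45 and 33) and Csf2rb of blood (80 and 53). They too were picked by value, and how many genes of each list went either way was not counted. Of the genes that define these cell types, Myod1 of muscle had 0 and 3 counts and Myog 0 and 23, Trp63 of stratified epithelium had 1 and 2, Sox9 and Sp7 of cartilage and bone had 4 and 3 and 4 and 4, and Ptprc and Cd3e of blood cells had 27 and 28, and 5 and 8. The part of such cells in the values of the 79 genes was not tested. Tnni2 is in the striated muscle list and Laptm5 in that of blood and immune cells. By symbol family, 26 of the 79 fell in one of the 22 families searched. None was among 1457 near-silent chemosensory receptors, 606 near-silent small RNA symbols or 100 near-silent chemokine and interleukin symbols. There were 2 among 31 near-silent zinc finger symbols and 2 among 116 near-silent homeobox and forkhead genes. Over all 7594 near-silent genes, 99 (1.3%) met the thresholds before genes were left out by symbol. None of 100 and 2 of 116 lie near that share. No family was tested against it, and only some of the 22 are given.

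The genes are spread over the chromosomes, with 11 on chromosome 7 the most on any. By gene order in RefSeq (GRCm38), 60 of the 78 with an entry (76.9%) had a next neighbour at 1 CPM or more in the controls, against 46.8% of 7404 other near-silent genes and 73.7% of all genes. Both neighbours were below 0.1 CPM for 7 (8.97%), against 42.6% of the other near-silent genes and 17.5% of all genes. Only Tnni2 and Lsp1 had a next neighbour that met the thresholds, namely each other. They lie on the same stretch as H19, one of the genes left out by symbol, in the order Tnni2, Lsp1, Gm14492, Tnnt3, Mrpl23, Nctc1, H19. Along it, the Zac1 means were 0.304, 1.41, 0.0182, 0.0240, 37.2, 0.0473 and 1.73 CPM, and the control means 0, 0.0143, 0, 0.00721, 36.5, 0 and 0 CPM. Gm14492, Tnnt3 and Nctc1, which lie between, stayed near silence. RefSeq lists 77 of the 78 as protein-coding (98.7%), against 78.7% of the other near-silent genes and 88.6% of all genes. The other near-silent genes include the 1457 chemosensory receptors and 606 small RNA symbols, and 3200 genes with no count in any library. The part of this make-up in the contrasts of gene order, coding share, transcript length and promoter sequence was not tested.

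Exons of 12 of the genes overlap those of another counted gene on the opposite strand in GENCODE, and the strand setting of the counting is not given in the sources used here, so their reads are uncertain. Txndc5, the partner of Bmp6, was at 149.1 CPM in the controls and 153.4 with Zac1, Hadha, the partner of Fam59b, at 123.4 and 124.0, and Oraov1, the partner of Ccnd1, at 28.9 and 29.0. The partners of C2 (Zbtb12, 14.1 and 13.7 CPM), Cabp7 (Zmat5, 11.7 and 11.5), Tmem91 (Exosc5, 7.24 and 7.80) and Adamts7 (Tbc1d2b, 5.77 and 6.61) were also well above the gene itself. Those of Gm9899, Gpr55, Rai14 and Sec1 were at 0.326, 0.174, 0.502 and 0.0149 CPM in the controls. With Zac1 they were at 0.501, 0.383, 0.468 and 0.117 CPM, higher for all but the partner of Rai14. Gpr55 itself, at 0.352 CPM with Zac1, lay below its partner, and Gm9899, at 0.571, little above its own. The part of partner reads in these values was not tested. Myl3, beside Pth1r, was at 0 in both groups.

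Promoter sequences were compared because Zac1 binds DNA. RefSeq windows of 300 bases (250 before the start and 50 after, GRCm38.p6) were matched for 58 of the 79 genes, in 72 windows. Their median GC share was 64%, against 47% in windows of the other near-silent genes and 60% in those of genes at 0.1 CPM or more in the controls. The observed over expected CpG ratio had a median of 0.587, against 0.203 and 0.715. At least 55% GC with a ratio of at least 0.6 was found in 34 of the 72 windows (47.2%), against 8.69% and 54.3%. Both medians lay nearer those of genes at 0.1 CPM or more than those of the other near-silent genes.

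The motifs searched, on both strands, were GGGGCCCC, which reads the same on either strand, the same core with 6 G before 4 C, a PLAG-type pair (GGGGC or GAGGC, then 6 to 8 bases, then GGG) that can overlap the other motifs, the GC box GGGCGG, and TATAAA starting 40 to 20 bases before the start. GGGGCCCC was found in windows of 4 of the 58 genes (6.90%), against 1.07% of the other near-silent genes and 1.55% of all genes with a window. Each stretch below lies before the start, runs 5′ to 3′ on the gene's strand and has the motif in capitals; coordinates are those of GRCm38.p6. Ccdc102a, which had no control count, is at chr8:94918106-94918153 on the minus strand, Gata2 at chr6:88193850-88193890 (plus), She at chr3:89831155-89831202 (plus) and Slc13a3 at chr2:165473281-165473328 (minus).
Ccdc102a: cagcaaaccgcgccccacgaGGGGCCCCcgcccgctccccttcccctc
Gata2: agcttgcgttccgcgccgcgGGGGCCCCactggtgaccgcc
She: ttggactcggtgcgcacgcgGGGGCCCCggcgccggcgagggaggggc
Slc13a3: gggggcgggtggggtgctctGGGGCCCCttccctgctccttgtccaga
The 4 genes had between 79 and 177 Zac1 counts.

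The PLAG-type pair was found in 32 of the 58 genes (55.2%), against 13.6% of the other near-silent genes, 37.4% of genes at 0.1 CPM or more and 30.2% of all genes with a window. It is shown for 5 genes taken from the 20 with most Zac1 reads. Gata2, Fam59b and Hspb7, also among those 20, held it too and are not shown. Others of the 20 with a window, such as Fcgrt, Emilin2 and Cyth4, had no match. Gm1337 is at chr2:118704155-118704210 (minus), Grin2c at chr11:115267261-115267352 (minus), Zfp423 at chr8:87959598-87959652 (minus), Ptgfrn at chr3:101110345-101110400 (minus) and Hrh3 at chr2:180104481-180104583 (minus). Capitals mark the pair with the bases between; in Gm1337 it lies on the opposite strand.
Gm1337: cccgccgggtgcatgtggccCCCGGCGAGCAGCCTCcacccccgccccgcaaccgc
Grin2c: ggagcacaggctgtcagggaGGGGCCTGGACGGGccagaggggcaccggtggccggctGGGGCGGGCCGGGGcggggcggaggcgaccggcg
Zfp423: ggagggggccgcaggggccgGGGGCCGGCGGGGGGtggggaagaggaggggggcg
Ptgfrn: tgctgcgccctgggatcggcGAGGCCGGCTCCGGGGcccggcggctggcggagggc
Hrh3: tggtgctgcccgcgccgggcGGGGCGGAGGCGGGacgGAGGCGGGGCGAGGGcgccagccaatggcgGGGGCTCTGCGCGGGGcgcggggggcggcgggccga
Genes with the pair had a median of 80.5 Zac1 counts, and the 26 with a window but no pair a median of 68.5.

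A GC-rich motif occurs more often in GC-rich sequence, so the shares were also taken within bands of GC content. In windows of 60 to 70% GC, 20 of 33 windows of the 79 genes held the pair (60.6%), against 47.1% of the other near-silent windows and 41.9% of windows of genes at 0.1 CPM or more. At 50 to 60% GC it was 6 of 18 (33.3%), against 20.1% and 21.0%, and at 70% or more 12 of 16 (75%), against 65.6% and 66.8%. Below 50% GC none of 5 held it. Over all windows the shares were 52.8%, 13.1% and 33.2%. Against both other sets the gap was narrower in each band from 50% GC upward than over all windows. Against genes at 0.1 CPM or more it was only slightly narrower at 60 to 70% GC, and none of these differences was tested. For GGGGCCCC, 3 of 33 windows held it at 60 to 70% GC (9.09%), against 3.27% and 1.75%. At 70% or more it was 1 of 16 (6.25%), against 7.14% and 3.54%, and at 50 to 60% none of 18, against 1.55% and 0.640%. GGGCGG was in 65.5% of the genes, against 17.5% and 64.6%, and TATAAA in 2 of the 58 (3.45%), against 5.75% and 1.78%. A match is a run of letters and not a measured binding site.

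**Figure D5:**
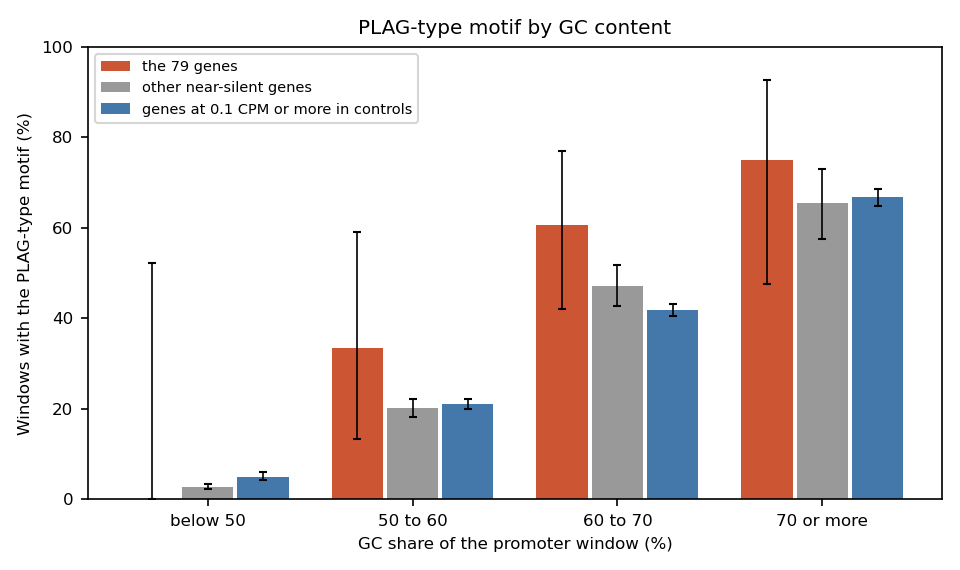
Share of promoter windows that hold the PLAG-type pair, by GC content of the window, for the 79 genes (orange), other genes near silence in the controls (grey) and genes at 0.1 CPM or more in the controls (blue); bars start at 0 and error bars are 95% exact binomial intervals that treat windows as independent. At 60 to 70% GC the shares are 60.6%, 47.1% and 41.9%.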

How the data were processed

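Stranded mRNA libraries, 4 from control and 4 from Zac1-transfected Min6 cells, were made per the labels' protocols. Raw counts per gene, as deposited, go back to HTSeq 0.6.1p1, after TopHat2 2.1.1 with Bowtie2 2.2.8 on mm9, bcl2fastq 2.17 and FastQC, per the submitters' processing notes. For annotation, strand setting and filters, nothing is given in the sources used here. CPM was computed as count over library total (30548923 to 42446737 counts). Near silence was a control mean below 0.1 CPM, and 0.2 CPM or more was required in every Zac1 library. The whole table was fitted with edgeR 4.0.16 in R 4.3.3 (quasi-likelihood test, TMM, filterByExpr, Benjamini-Hochberg adjusted p under 0.05), tested on simulated data. Alternatives were other thresholds, TMM-scaled or plain totals, DESeq2 1.42.0, no filter, a replicate block and leaving out libraries. Intervals cover counting error only, since reads carried no molecular identifiers in the files used.

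The members and lists were chosen with earlier results of these data known, and function classes were assigned after membership was seen. Of the members, 76 are named and 3 are not reported here by name; values per library are given for the 20 with most Zac1 counts, those without a control count and the 3 just inside each threshold, others by total. A few further genes with per-library values were chosen after their values were seen. Neighbours and promoter windows came from RefSeq (GRCm38.p6), matched by gene ID, and transcript lengths and exon overlaps from GENCODE, not the build of the counts. Protein features were not analysed here.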

Additional observations from a re-analysis of the deposited data

Results flagged for a closer look

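Single libraries stood far from the other 3 of their group, by the gap to the nearest value over the group's range (above Dixon's 95% critical value), in the Zac1 libraries of 4 of the 79 genes. Among the control libraries it was 9 of the 71 genes whose control values differed, all with 9 counts or fewer in total. Chance gives about 1 in 20 such groups. Scara3 was high in Zac1 library 3, at 1.603 CPM, and 4632428N05Rik was low in the same library, at 0.243 CPM. Gm9899 was high in Zac1 library 1, at 0.817 CPM, and Car9 was high in Zac1 library 5, at 0.989 CPM. Plagl1 itself was high in Zac1 library 1, at 5820 CPM. The summed level of the 79 genes was low in control library 5, at 2.42 CPM.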

How the results depend on the processing

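The number of genes moved with the thresholds: 38 with a control mean below 0.05 CPM, 161 below 0.2 CPM, 151 with 0.1 CPM or more in every Zac1 library and 14 with 0.5 CPM or more. It was 77 with TMM-scaled totals and 70 to 100 when 1 library or both libraries of a number were left out. With the groups exchanged, 0 genes became 16 with a control threshold of 0.2 CPM and 20 with a Zac1 threshold of 0.1 CPM, and 0 to 2 with libraries left out. Genes called over the table numbered 308 higher and 5 lower, and 260 to 357 higher and 1 to 5 lower with 1 library left out. Of the 79 genes, 43 were called, 68 with DESeq2, 73 with no filter on low counts, which also tested more of them, and 42 to 59 with 1 library left out. Over all tested genes, 308 of 14331 were called higher in the main fit, 389 of 17985 with DESeq2 and 420 of 19900 with no filter. The 79 were chosen on the same contrast, so nothing is read from how many of them were called in any fit. Deviations of same-numbered libraries correlated at 0.558, 0.0895, 0.374 and 0.61 for numbers 1, 2, 3 and 5. In 3 of the 4 the control library matched its own number best, and control library 2 matched Zac1 library 3 best (0.25). Since the labels give no shared day or batch and number 2 stayed under 0.1, the numbers were not taken as pairing, though the others hint at it. With a replicate block, 512 genes were called higher and 116 lower, among them 44 of the 79. Over 12 alternatives, C2, Prom2 and Tnfsf11 lost their call in some, and Ccnd1 (adjusted p = 0.0541 with edgeR) gained it in 5: library totals only (0.0418), DESeq2 (0.0260), no filter (0.0229), the replicate block (0.0127) and without control replicate 3 (0.0162). Over the other alternatives its adjusted p ran from 0.0630 to 0.196. The direction of these genes was fixed by how they were chosen. The PLAG-type share fell from 55.2% (95% exact interval 41.5 to 68.3) to 36.2% with a gap of 7 bases only, and GGGGCCCC, at 6.90% (1.91 to 16.7), gave 0% as 6 G then 4 C. Depth limits the control values, at 13 counts or fewer per gene.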
